A study of Mus musculus with 58 samples.

Results

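BMAL1 peaks of 9 mouse genes that act in the cell cycle, in growth arrest or in cell death were described: Wee1, Ccne1, Ccne2, Cdk4, Ccnd1, Plk2, Max, Bax and Gadd45g. The genes were chosen by the gene named beside each peak in the authors' BMAL1 peak lists, so that having a peak is not a finding here. They are 9 of 1137 genes named in either list, with 11 of 463 BMAL1 peaks in NIH3T3 cells and 12 of 1254 in liver. CLOCK peaks were taken by position, within 5 kb of these BMAL1 peaks, out of the 1016 CLOCK peaks listed for NIH3T3 cells and the 439 listed for liver.

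The NIH3T3 lists came from a mouse fibroblast line whose clocks were set in step by 100 nM dexamethasone, a glucocorticoid, for 30 min. Per the labels, 7 BMAL1 libraries taken 12 to 38 h later and 6 CLOCK libraries taken 18 to 38 h later point to these lists, while the name of the BMAL1 list gives 20 h alone. The liver CLOCK list belongs to 1 library, called pooled, from C57/BL6 mice aged 12 to 14 weeks, kept in 12 h of light and 12 h of dark with free access to food, with no time of day given. The liver BMAL1 list was made by the authors from earlier libraries of zeitgeber time 6, whose mice are not described in the sources used here. For ChIP several precipitations were pooled to reach enough DNA, and the cells were confluent when fixed. The lists give positions with no height, score or value per library, so depth per library is unknown, no replicate error can be given, and the identity of cells and tissue could not be checked against marker genes. Each context has 1 list per protein, so no difference between NIH3T3 cells and liver was tested.

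BMAL1 and CLOCK are basic helix-loop-helix proteins that bind DNA together at E-boxes, with CACGTG as the canonical form, and switch on the genes of the circadian clock. Cell division is driven by cyclins and their kinases: D cyclins with CDK4 act in early G1, E cyclins with CDK2 at the entry into S phase, and WEE1 holds back CDK1 before mitosis. Most hepatocytes of an adult liver rest outside the cycle, while NIH3T3 fibroblasts divide in culture until they are crowded. In mouse liver Wee1 is a known clock-controlled gene.

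The promoters of 4 of the genes carry the canonical E-box and are shown because a BMAL1 peak was annotated within 200 bp of their start sites. They are RefSeq sequences of build GRCm38.p6, 5′ to 3′ on the strand of the gene, with CACGTG in capitals. Positions count from the RefSeq start site, with -1 as the last base before it.
Cdk4, plus strand, chr10:127063335-127063534, bases -200 to -1: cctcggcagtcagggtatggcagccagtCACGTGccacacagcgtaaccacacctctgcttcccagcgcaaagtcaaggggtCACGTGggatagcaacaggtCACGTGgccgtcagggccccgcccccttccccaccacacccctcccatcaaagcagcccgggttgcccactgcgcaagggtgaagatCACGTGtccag
Max, minus strand, chr12:76962246-76962348, bases -100 to 3: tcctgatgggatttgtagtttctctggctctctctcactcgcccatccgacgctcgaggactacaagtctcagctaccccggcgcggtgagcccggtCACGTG
Bax, minus strand, chr7:45466899-45466998, bases -100 to -1: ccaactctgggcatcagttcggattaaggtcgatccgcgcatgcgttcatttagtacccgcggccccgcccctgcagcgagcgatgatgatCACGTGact
Bax, minus strand, chr7:45466849-45466873, bases 26 to 50: gcggggcaccCACGTGagggccgca
Gadd45g, plus strand, chr13:51846475-51846674, bases -200 to -1: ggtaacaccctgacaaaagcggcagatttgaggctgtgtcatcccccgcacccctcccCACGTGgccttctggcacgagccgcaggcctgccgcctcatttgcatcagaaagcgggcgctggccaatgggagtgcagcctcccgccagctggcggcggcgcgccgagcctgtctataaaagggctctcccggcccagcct

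Wee1, the kinase that restrains mitotic entry, carried 4 distinct BMAL1 peaks, all upstream of its start site, and was the member with CLOCK. Peak positions here and below are mm9 coordinates, the build named in the submitters' processing notes. In NIH3T3 cells the Wee1 peaks lay at chr7:117264935-117264984, chr7:117265127-117265187 and chr7:117265486-117265580, with the authors' distances of -905, -708 and -332 bp. In liver they lay at chr7:117264857-117264906, 983 bp upstream, and at the same 2 intervals 905 and 708 bp upstream. The peak nearest to the start site was thus in the NIH3T3 list and the farthest in the liver list. All 4 stood within a stretch that starts at 117264857 and ends at 117265580, and the 3 NIH3T3 distances lead back to the same start site within 1 bp.

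The E cyclin genes had the same peak entries in both lists, close to the start site for Ccne2 and far from it for Ccne1. Ccne2 had peaks at chr4:11118360-11118413, 112 bp upstream, and at chr4:11118580-11118629, 103 bp downstream, so that the start site lay between them. Ccne1 had peaks at chr7:38869942-38869991 and chr7:38870205-38870279, with distances of 14422 and 14147 bp. Distances are positive on the side of transcription for most genes with several peaks. Reading the sign by the strand of the gene gave 1 start site within 3 bp for 36 of 53 NIH3T3 genes, against 20 when it was read by genome direction. In the liver list it was 72 of 116 genes, against 40. Ccnd1, Plk2, Max, Bax and Gadd45g, with 1 peak each, cannot be checked in this way. Read by the strand of the gene, the Ccne1 peaks lay downstream of the start site. This is the side of the gene that faces Uri1, the next protein-coding gene in RefSeq. All 4 intervals, of Ccne1 and Ccne2, were written identically in both lists, and how such entries arose is not known.

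Cdk4, the kinase partner of D cyclins, also carried 2 peaks in each list. They lay at chr10:126500394-126500488, 150 bp upstream, and at chr10:126500630-126500679, 5 bp upstream. Their distances do not refer to the same start site, since the start sites they lead back to lie 68.5 bp apart. Ccnd1, which encodes cyclin D1, a partner of CDK4, was named in liver and not in NIH3T3 cells, with a peak at chr7:152242393-152242442, 116643 bp upstream. Cdk4 and Ccnd1 stood at opposite ends of the distances among the 9 genes.

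Plk2, a polo-like kinase with a role in centriole duplication, was named beside a liver peak at chr13:111245474-111245523, 60246 bp downstream of its start site. Max encodes the common partner of MYC and MAD proteins, which binds E-boxes itself. Its liver peak at chr12:78063220-78063269 lay 9 bp upstream of the start site. Neither gene had an NIH3T3 BMAL1 peak, and the nearest NIH3T3 peak on the chromosome was over 2 Mb away from each (2532387 bp for Plk2 and 3054524 bp for Max). With Ccnd1, these are the 3 genes found in the liver list alone, and Max was the one with a peak at its promoter.

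Bax encodes the cell death protein that opens the outer mitochondrial membrane, and Gadd45g a stress-induced growth arrest protein. Both were in the NIH3T3 list alone. The Bax peak lay at chr7:52722176-52722256, 53 bp downstream of the start site, and the Gadd45g peak at chr13:51941927-51941992, 88 bp upstream. The nearest liver BMAL1 peak was 107338.5 bp from the Bax peak and 1128278 bp from the Gadd45g peak, measured between centres.

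**Figure D1:**
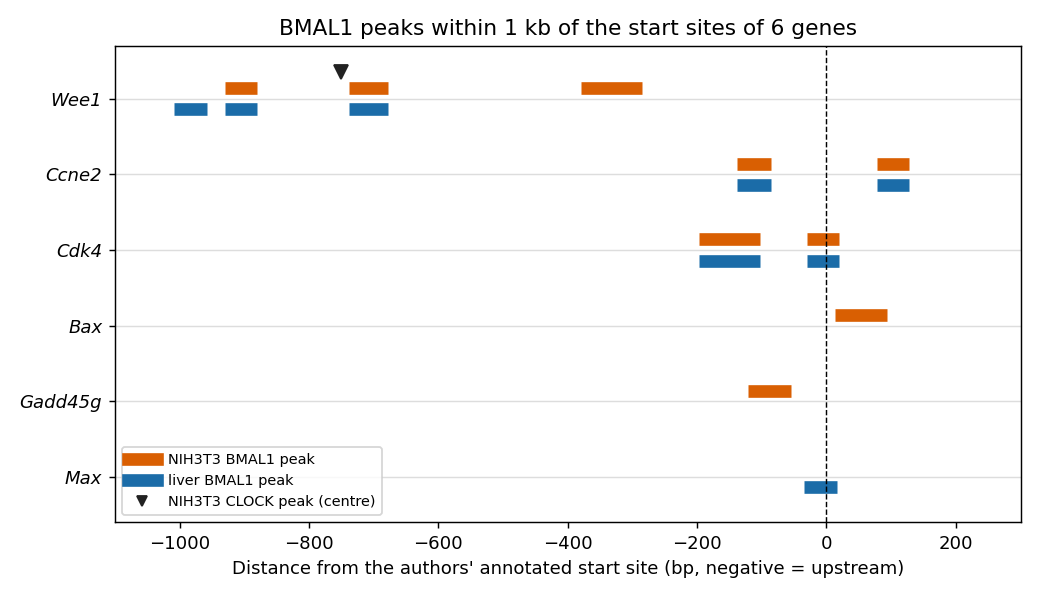
BMAL1 peaks of the 6 genes with a peak within 1 kb of the start site, drawn to width along the authors' distance in bp (NIH3T3 above, liver below on each line), with the centre of the NIH3T3 CLOCK peak as a triangle. Ccne2 and Cdk4 have the same 2 intervals in both lists, Wee1 adds 1 peak in each list, and Bax, Gadd45g and Max have a peak in 1 list alone. Each Cdk4 peak is placed by its own start site, so the distance between them is not to scale.

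Most peaks of the 9 genes were close to a start site. In NIH3T3 cells 9 of 11 lay within 1 kb (81.8%, 95% Clopper-Pearson interval 48.2 to 97.7%), beside 71.7% of all NIH3T3 BMAL1 peaks. In liver 8 of 12 did (66.7%, interval 34.9 to 90.1%), beside 44.7% of all liver peaks. These intervals cover counting error only, and peaks of the same gene are not independent. The exceptions were the peaks of Ccne1 in both lists and those of Ccnd1 and Plk2 in liver. The median distance of the members' peaks was 150 bp in NIH3T3 cells and 806.5 bp in liver, and over all peaks with a gene it was 209 bp in the NIH3T3 list and 1600.5 bp in the liver list. Upstream peaks numbered 7 of 11 in NIH3T3 cells and 8 of 12 in liver, where 64.8% and 54.4% of all annotated peaks lay upstream. These shares describe the choice of genes and were not tested, since the rule read the same lists.

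**Figure D2:**
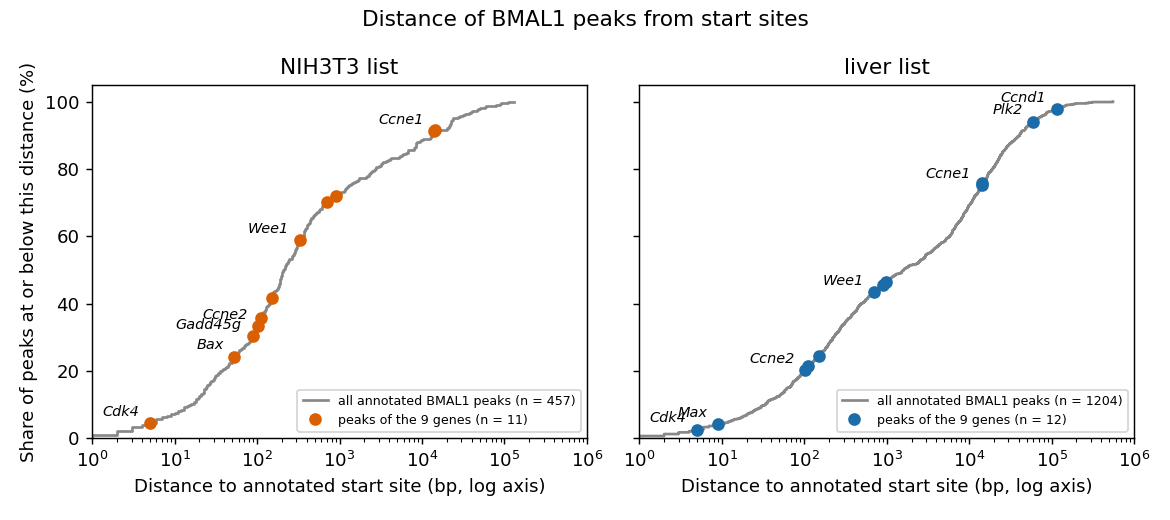
Distance from the annotated start site (bp, log axis) against the share of BMAL1 peaks at or below it (%), for all annotated peaks (grey line) and the peaks of the 9 genes (points), in the NIH3T3 list (left) and the liver list (right). The members' distances are spread widely, with Cdk4 at 5 bp in both lists, Ccne1 at 14147 bp and Ccnd1 at 116643 bp.

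Wee1, Ccne1, Ccne2 and Cdk4 were in both lists. They are 4 of the 6 members in the NIH3T3 list, beside 193 of all 345 genes named there. In the liver list they are 4 of 7 members, beside 193 of 985 genes. Counts of peaks weigh these 4 genes more, since each has 2 or 3 peaks per list, which are not independent. With centres within 500 bp taken as shared, 9 of 11 NIH3T3 peaks of the members had a liver partner, beside 59.2% of all NIH3T3 BMAL1 peaks. In the other direction, 9 of 12 liver peaks had an NIH3T3 partner, beside 21.8% of all liver peaks. Of these 9 in each list, 8 were intervals written identically in both lists, among the 263 identical entries with which both lists begin. The ninth was a Wee1 peak each time, 376 bp from its nearest partner in NIH3T3 cells and 78 bp in liver. The nearest pair outside the limit was that of Bax, at 107338.5 bp. No source used here says how the identical entries arose, so they are not counted as repeat observations. The partners of both these Wee1 peaks were themselves identical entries, and with the identical entries left out of both lists 0 peaks of the 9 genes had a partner within 500 bp.

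The genes in both lists carried groups of neighbouring peaks, while those in a single list carried 1 peak each. With peaks within 1 kb joined, this contrast is lost: the 6 members in the NIH3T3 list had 6 loci and the 7 in the liver list had 7. Counting distinct intervals over both lists, all 4 members in both lists had at least 2, with 4 for Wee1 and 2 each for Ccne1, Ccne2 and Cdk4, beside 45.6% of the 193 genes in both lists. None of the 2 members in the NIH3T3 list alone had more than 1, beside 8.55% of 152 such genes with 2 or more. None of the 3 members in the liver list alone did, beside 12.2% of 792. A gene in both lists can collect intervals from each, but within a single list too the 4 genes had at least 2 peaks, where 35.8% of the 193 genes did so in the NIH3T3 list and 36.8% in the liver list. The numbers of members are too small to set them apart from other genes of their class.

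**Figure D3:**
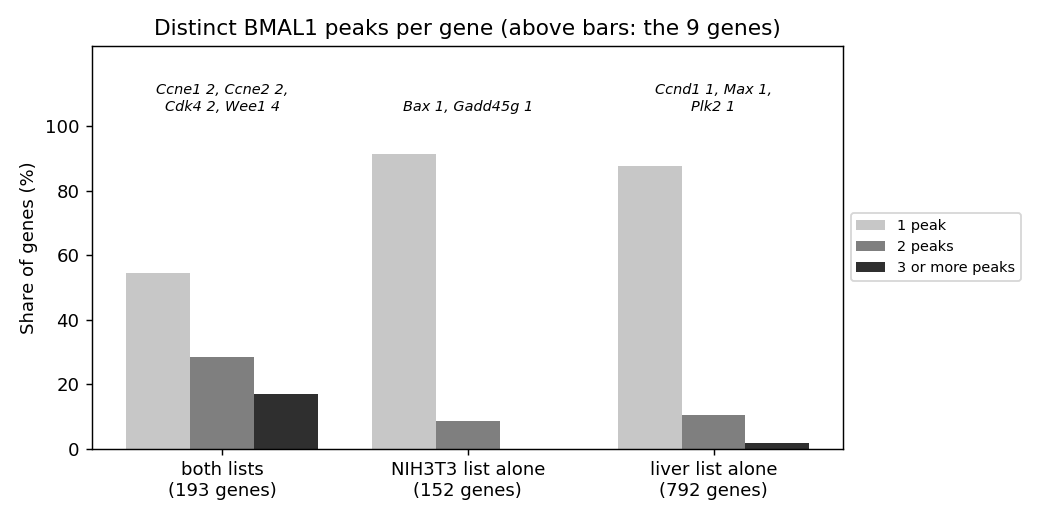
Share of genes (%) with 1, 2 or at least 3 distinct BMAL1 peaks, for genes in both BMAL1 lists, in the NIH3T3 list alone and in the liver list alone. Above the bars the 9 genes are written with their number of peaks, which is 2 to 4 in the first class and 1 in the others.

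The peaks of a group stood at most 376 bp from their neighbours. Neighbouring centres were 213.5 bp apart at Cdk4, 218 bp at Ccne2 and 275.5 bp at Ccne1, the same in both lists. At Wee1 the steps were 197.5 and 376 bp in NIH3T3 cells, and 78 and 197.5 bp in liver. In the NIH3T3 list the median step between neighbouring peaks of the same gene was 141 bp over the other genes (107 steps), and 72% of steps were at most 300 bp. In liver the median was 322.5 bp over 214 steps, of which 47.2% were at most 300 bp. All the members' steps but the longer NIH3T3 step of Wee1 were below 300 bp. In NIH3T3 cells every step of the members was longer than the median of the other genes, and in liver every step was shorter. Apart from the 376 and 78 bp steps of Wee1, the members' steps were the same in both lists. The reversal thus lies in the medians of the other genes and not in the members. The upper quartile of the other genes' steps was 316.5 bp in the NIH3T3 list and 10676.5 bp in the liver list.

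CLOCK stood at a single one of the 9 genes. An NIH3T3 CLOCK peak at chr7:117265090-117265139 lay among the Wee1 peaks, with its centre 42.5 bp from that of the BMAL1 peak 708 bp upstream, overlapping it by 13 bp. It was 155 bp from the BMAL1 peak 905 bp upstream and 418.5 bp from that 332 bp upstream, and 233 bp from the liver BMAL1 peak 983 bp upstream. At 500 bp, 3 of 11 NIH3T3 peaks of the members thus had an NIH3T3 CLOCK peak (27.3%, interval 6.02 to 61%), beside 22.0% of all NIH3T3 BMAL1 peaks. At 5 kb it was the same 3, beside 22.9%. Since these 3 share 1 CLOCK peak at 1 gene, the share is a count of neighbouring peaks and not of separate sites.

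The next NIH3T3 CLOCK peak was far outside the limit, 42.2 kb from the Cdk4 peaks. For the others the nearest NIH3T3 CLOCK peak was 238 kb away at Bax, 555 kb at Ccnd1, 730 kb at Plk2, 733 kb at Max, 1.04 Mb at Ccne2, 2.19 Mb at Gadd45g and 9.49 Mb at Ccne1. At the clock genes Per1, Dbp and Nr1d1 the same list had a CLOCK peak within 500 bp of 3 of 3, 5 of 6 and 6 of 7 BMAL1 peaks. At Wee1 it was 3 of 3, all by the same CLOCK peak.

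In liver no CLOCK peak was near any of the 9 genes. Of 12 liver BMAL1 peaks 0 had a liver CLOCK peak within 500 bp, beside 4.31% of all liver BMAL1 peaks. Within 5 kb it was again 0 of 12, beside 4.63%. Taken as independent, 12 peaks would allow a share of up to 25%. They form 7 loci when joined within 1 kb, so that this limit is too low. The nearest liver CLOCK peak was 238 kb from Bax, 575 kb from Gadd45g and 1.44 Mb from Cdk4, and 12.1 Mb from Wee1. At Per1, Dbp and Nr1d1 the liver list had CLOCK within 500 bp of 2 of 3, 3 of 4 and 4 of 4 BMAL1 peaks. With so low a share over all peaks, 0 of 12 does not set these genes apart, and the absence of an entry from a list of unknown depth does not show that CLOCK was absent from the Wee1 promoter in liver.

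The choice of genes did not read promoter sequences. Since BMAL1 binds E-boxes and the genes were chosen for BMAL1 peaks, the sequences are not independent of that choice. RefSeq windows from 250 bp before to 50 bp after the start site were at hand for 6 members, namely Ccne1, Cdk4, Plk2, Max, Bax and Gadd45g. Wee1, Ccne2 and Ccnd1 had no entry. The canonical E-box CACGTG, which reads the same on both strands, was in the windows of Cdk4, Max, Bax and Gadd45g, and in 7.15% of all 32851 windows. It was not found in those of Ccne1 and Plk2, whose peaks lay over 10 kb away. The E-box-like letters CACGTT and AACGTG, which are the same motif read from opposite strands, were in none of the 6 windows.

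Among the 6 genes with a window, those with the E-box were those with a BMAL1 peak within 200 bp of the start site. In NIH3T3 cells these were 3 of 3 genes (Cdk4, Bax and Gadd45g), beside 64.5% of 138 genes with such a peak in the NIH3T3 list. In liver they were 2 of 2 (Cdk4 and Max), beside 50.9% of 216 genes. For genes whose liver peaks all lay over 10 kb away, the window held the E-box in 0 of 2 members (Ccne1 and Plk2), beside 5.36% of 168 genes. A match is a description of these letters and does not show where BMAL1 was bound.

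Cdk4 had the most E-boxes among the members with a window. Its window held 4 canonical E-boxes, starting 172, 118, 98 and 11 bases before the start site, with 48, 14 and 81 bases between neighbours. Windows with at least 4 made up 0.0244% of all RefSeq windows, which is 8 windows of 6 genes. Bax had 2, starting at -9 and 36 with 38 bases between them, and windows with at least 2 made up 0.594%. Both shares are over all windows, and those among genes with a BMAL1 peak near the start site were not counted. The E-box of Gadd45g started at -142, and that of Max ran from -3 to 3, across the start site.

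Peaks were placed by the authors' distances, which holds only if their start site is that of RefSeq. The 2 Cdk4 peaks cannot both be placed so, since their distances refer to start sites 68.5 bp apart. By the start site of the peak 150 bp upstream, this peak would cover the E-boxes at -172 and -118. The other Cdk4 peak would then cover none and lie 44.5 bp from the nearest. By the start site of the peak 5 bp upstream, this peak would cover the E-box at -11. The peak farther upstream would then touch that at -172 alone. The Max peak would cover the E-box across the start site, and the Bax peak that at 36. The Gadd45g peak would end 16 bp short of its E-box. The peaks are in mm9 and the windows in GRCm38.p6, so that no position was carried over between them.

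**Figure D4:**
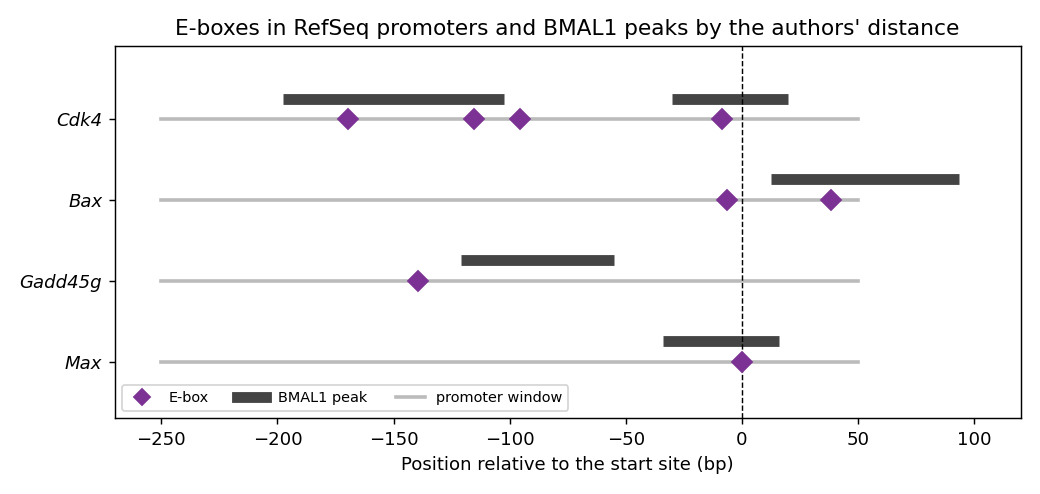
Canonical E-boxes (diamonds) in the RefSeq promoter windows (grey lines) of Cdk4, Bax, Gadd45g and Max, with the BMAL1 peaks of either list (dark bars) placed by the authors' distance, in bp from the start site. Cdk4 has 4 E-boxes, Bax 2, and Gadd45g and Max 1 each, and the Gadd45g peak ends 16 bp from its E-box. Each Cdk4 peak is placed by its own start site. These start sites lie 68.5 bp apart, so the 2 placements cannot both hold.

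Among 100 genes of the cell cycle and its brakes, grouped by role, 8 were named in the NIH3T3 list and 9 in the liver list, with 12 in either and 5 in both. The 9 genes, chosen for having a peak, are among the 100. Of the other 91, 2 were named in each list (2.2%). Of 21896 protein-coding RefSeq genes, 1.40% were named in the NIH3T3 list and 3.79% in the liver list. Taking out 9 genes for their peaks lowers the share of the other 91, so it cannot be compared with these background shares. At such background shares, a group of 5 to 13 genes with 0 named does not stand apart from other genes. Of the 13 cyclins in this selection, Ccne1 and Ccne2 were named in both contexts and Ccnd1 in the liver list as well. Of its 5 cyclin-dependent kinases, Cdk4 was named in both contexts. The selection does not hold the whole families: outside it, and seen after the values were known, the cyclin gene Ccno had the same peak 125 bp upstream in both lists. Likewise Cdk18 and Cdk17 had liver peaks 33 and 6065 bp upstream, and the replication gene Mcm10 had one 595 bp upstream. Among the genes selected, no CDK inhibitor (of 7), no gene of the RB and E2F group (of 13) and no replication licensing gene (of 11) was named in either list. Of 11 kinases and phosphatases of mitotic entry and checkpoints, Wee1 was named in both. Since these genes were listed with earlier results known, the counts describe the lists and no more.

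Beyond the 9 genes, 3 of the 100 had peaks. Mnt, which encodes a MAX-binding repressor, had the same peak in both lists at chr11:74652155-74652208, 1211 bp from its start site. Together with Max, 2 of 11 genes of the MYC and MAX network were thus in the liver list, and Mnt alone was in the NIH3T3 list. Bcl2l1, whose main product BCL-XL opposes BAX, had an NIH3T3 peak at chr2:152632007-152632093, 23997 bp away, and no liver peak. Of 13 genes of the BCL2 family, Bax and Bcl2l1 were therefore named in NIH3T3 cells and 0 in liver. Plk5, a polo-like kinase, had a liver peak at chr10:79821006-79821055, 308 bp away. Of 5 polo-like kinases 0 were thus named in NIH3T3 cells, and Plk2 and Plk5 in liver. Being in a single list is common: 152 of the 345 NIH3T3 genes and 792 of the 985 liver genes were. Bax and Plk2 were also chosen for having a peak, so these family counts do not set the contexts apart. Gadd45g was the single gene named of 11 in the growth arrest and p53 group. None of the peaks of Mnt, Bcl2l1 and Plk5 had a CLOCK peak of its own context near it, the nearest being 416137.5 bp from Bcl2l1.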

How the data were processed

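Peak lists of ChIP-seq (sequencing of DNA bound by a protein) were used. The submitters' processing notes name Bowtie, SAMtools and bedtools and the build mm9, with no roles. No source used here gives the peak caller, the thresholds or the tool versions. Deposited BMAL1 lists give position, gene and signed distance in bp to the start site. In the deposited CLOCK list of NIH3T3 cells the gene column was not used. RNA, polymerase II and input libraries were not analysed here.

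Starts are printed counting from 1. Distances between peaks are between centres, with 500 bp as the limit for shared peaks and for CLOCK at BMAL1, and 5 kb in the choice of CLOCK peaks. The distance, overlap and joining steps were checked on simulated peaks with known answers. No test was run. A limit for a count of 0 is 3 counts of the total. RefSeq tables of GRCm38.p6 gave promoter sequences, strands and neighbouring genes, and 306 of 345 NIH3T3 and 829 of 985 liver gene names matched a protein-coding gene by symbol or synonym. The 9 genes, the list of 100 genes and the named genes (the 9, list genes with a peak, and Per1, Dbp and Nr1d1 for CLOCK) were chosen with earlier results of these data known. Alternatives were other distance limits, 1 bp overlap, joined peaks, other windows and leaving out identical entries. Python 3.11.15, pandas 2.3.3, NumPy 2.4.6, SciPy 1.17.1 and matplotlib 3.10.9 were used.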

Additional observations from a re-analysis of the deposited data

How the results depend on the processing

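Joining peaks within 1 kb reduced the 11 NIH3T3 peaks of the 9 genes to 6 loci and the 12 liver peaks to 7. With an overlap of 1 bp required, 1 NIH3T3 BMAL1 peak of Wee1 had CLOCK in place of 3. Leaving out the identical entries, chosen after seeing the data, left 0 peaks with a partner in either list (1 in each if identical entries still counted as partners), 1 NIH3T3 peak with CLOCK, and 100% of the remaining 3 NIH3T3 peaks within 1 kb. Within 10 kb of start sites, 6 of the 100 genes were named in the NIH3T3 list and 6 in the liver list. Within 1 kb it was 5 in the NIH3T3 list and 5 in the liver list. Partner limits of 200 and 1000 bp, promoter limits of 200 bp and 5 kb, and the wider E-box definition kept counts within 1.5 times, or shares within their binomial intervals. Leaving out libraries, stricter peak scores and depth could not be examined, since the lists hold no such values.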

Other observations

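In the gene column of the NIH3T3 CLOCK list, Wee1 stood beside a peak at chr16:10482921-10482970, although its BMAL1 peaks lie on chromosome 7. The CLOCK peak among the Wee1 BMAL1 peaks had no gene in that column. By that column, the CLOCK peak at Wee1 would have been missed and another counted in its place.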
